A study of Mus musculus with 4 samples.

Results

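The comparison is between DNase-seq lists of hypersensitive regions from 7438 cells after estradiol (E2, the natural ligand of the estrogen receptor) and from untreated cells of the same line. DNase-seq maps open chromatin through its ready digestion by the nuclease DNase I. The members are all 65879 regions of the untreated list and all 35496 regions of the E2 list, 101375 of the 202687 regions in the 4 lists of the series. A region was counted as gained if it was in the E2 list and overlapped no untreated region by 1 bp or more, as lost in the reverse case, and as shared otherwise. The 7438 line is of mouse mammary origin and makes GFP-GR, a tagged glucocorticoid receptor, and Cherry-ER, a tagged estrogen receptor, from a tetracycline-regulated promoter, so both receptors are introduced proteins. All cells were plated 48 h before the experiment, and tetracycline was withdrawn 24 h before hormone, in the untreated cells too. The E2 cells then received 100 nM E2 for 30 min. The other 2 lists, from cells given 100 nM dexamethasone (Dex, a ligand of GR) or both hormones at 100 nM each for the same time, serve only as further readouts. Each condition had 1 library, so all values describe these libraries and no difference was tested against a spread between replicates.

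The estrogen receptor is a transcription factor that, once bound by its ligand, settles on DNA at estrogen response elements and recruits coactivators and chromatin remodelers. In mammary cells many of its sites lie in enhancers far from gene starts. Some of these are already open before hormone, and others open only when the receptor binds. A hypersensitive region that is gained or stronger after ligand is therefore a usual sign of a regulatory element engaged by the receptor, though other factors can open one as well. Genes, motifs and base sequences at the regions were not analysed here, and the labelled cell type was not checked against marker genes. Positions are those of the deposited lists (mm9).

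The E2 list was shorter and its regions were narrower and weaker. It covered 19.7 Mb with a median width of 538 bp, against 45.3 Mb and 587 bp in the untreated list. The median maximum tag density, the highest density of mapped tags within a region on the scale of the authors, was 7.40 in the E2 list and 8.93 in the untreated list. The smallest step between densities, read as 1 tag, was 0.200 after E2 and 0.255 untreated. The median region thus held 37 tags at its summit after E2 and 35 untreated. If both libraries were scaled to the same total, the E2 library was 1.28 times as deep, so that the deeper library had fewer regions. How far this difference between 2 single libraries comes from the hormone and how far from the libraries themselves cannot be told apart.

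Gained regions were few among strong regions and many among weak ones. In all, 9453 E2 regions (26.6%, Wilson 95% interval 26.2 to 27.1) were gained. They held 17.3% of the length covered by the E2 list. Their median maximum density was 5.20, against 9.0 for the 26043 E2 regions that overlapped an untreated one, and their median width was 317 bp against 596 bp. Lost regions numbered 41178 (62.5%, 62.1 to 62.9) and held 45.2% of the untreated length. Their median density was 6.63, against 25.3 for the 24701 untreated regions that overlapped an E2 region, and their median width was 455 bp against 877 bp. At the summit the median gained and the median lost region both held 26 tags, against 45 and 99 in the shared regions of the same lists. A gained region is one that passed the threshold of the authors in 1 library and not in the other, so that a weak one need not have been closed in untreated cells. The excess of lost over gained regions largely restates the difference in list length, since 94.2% of shared sites pair 1 region of each list. With the untreated list cut to its 35496 densest regions, 13267 were lost and 11899 gained.

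Each list was divided into 5 classes of equal size by maximum density, from class 1, the weakest, to class 5, the strongest. The gained share was 67.8% in class 1, 40.3% in class 2, 18.3% in class 3, 5.55% in class 4 and 1.13% (80 of 7100 regions) in class 5. The lost share was 93.9%, 91.4%, 81.7%, 43.8% and 1.85% (244 of 13176) in the same order. Loss therefore stayed common through class 4, whose densities ran from 11.5 to 24, and was rare above. The classes by width gave the same order, from 68.3% to 2.07% gained and from 95.4% to 15.4% lost. Wide regions were lost more often than dense ones: 2031 untreated regions of at least 926 bp were lost, against 244 of at least 24 in density. Within the highest density class narrower regions were also unmatched more often, except in the 2 narrowest classes of the untreated list, which held few regions. In density class 5 of the untreated list 1.38% of the 9122 regions of width class 5 were lost, 2.82% of the 3865 of class 4 and 5.23% of the 172 of class 3. Of the 16 regions of width class 2 and the 1 of class 1, 0 were lost. In density class 5 of the E2 list 0.664% of the 5117 widest were gained, against 10 of 24 in width class 2 and 5 of the 9 narrowest. In density class 4 of that list the shares were 2.94% of the 1462 widest and 68.8% of the 48 narrowest.

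**Figure D1:**
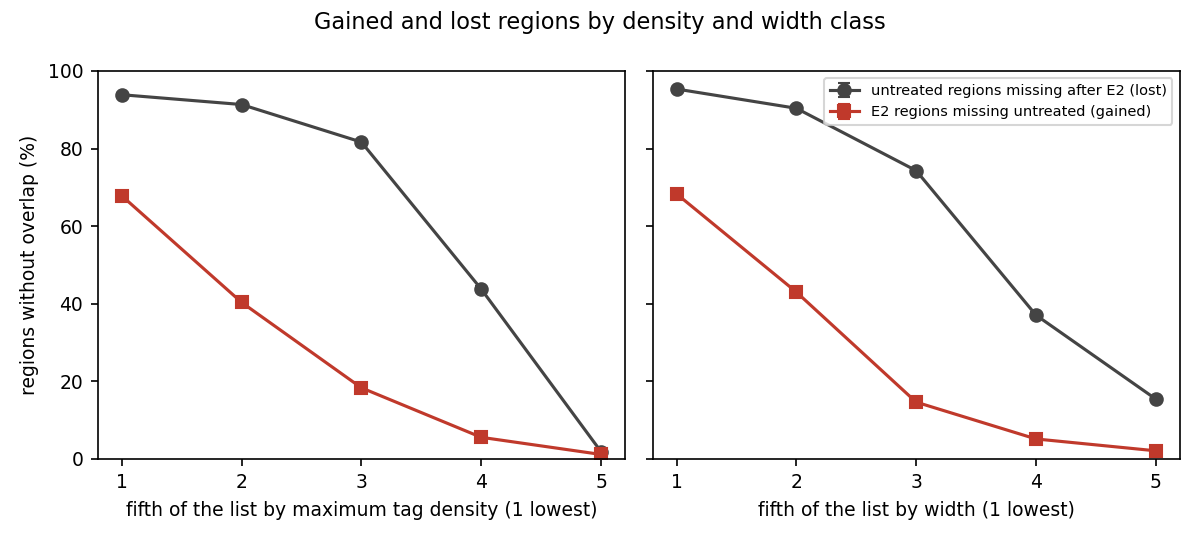
Share of regions without overlap in the other list (%), by class of maximum density (left) and of width (right), for the untreated list (circles) and the E2 list (squares); bars are Wilson 95% intervals and are mostly smaller than the symbols. Both shares decrease from class 1 to class 5, and the lost share is still 43.8% in density class 4, where the gained share is 5.55%.

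Strong gained regions were mostly found again in the other library that received E2. Of the 80 gained regions in density class 5, the Dex+E2 list held 67 (83.8%) and the Dex list 27 (33.8%). Of the 394 in class 4, 311 (78.9%) and 89 (22.6%) were listed there, and of the 1300 in class 3, 510 (39.2%) and 148 (11.4%). For the weakest class these shares were 9.62% and 7.29%. Shared E2 regions of class 5 had a counterpart after Dex+E2 in 99.9% and after Dex in 99.2% of cases. Strong gained regions were thus listed less frequently than strong shared ones in both libraries, with the larger gap after Dex. The Dex list, with 51251 regions, and the Dex+E2 list, with 50061, were of similar length.

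A part of the strong gained regions lay in short stretches of the genome where the median deposited densities of shared sites were mostly similar between libraries. These stretches were defined after the values were seen, as runs of at least 10 shared sites that were 2-fold higher after E2, relative to the library medians, with gaps of at most 50 kb. Of the 80 gained regions of class 5, 22 lay in such a stretch or within 50 kb of one. Of these 22, the Dex+E2 list held 9 and the Dex list 12. Each of the remaining 58 had a counterpart after Dex+E2, where their median density was 23.8 against 15.3 after E2. After Dex 15 of the 58 (25.9%) had one, with a median of 7.84. In class 4 the 336 gained regions outside the stretches had a counterpart after Dex+E2 in 82.1% and after Dex in 18.2% of cases.

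Of the 10 densest gained regions, 7 lay in or beside these stretches. They had densities of 27.2 to 51.6 after E2, widths of 262 to 553 bp and Z scores, as the authors give them for each region, of 5.67 to 8.47. The densest was chr11:3030730-3031057, with 51.6 (exact Poisson 95% interval 45.5 to 58.3) after E2. It had 74.0 after Dex and 64.0 with both hormones, and lay 838 bp from the nearest untreated region. Intervals on densities are for the tags at the summit and, like those on shares, cover counting error only. The other 3 of the 10 were wider, at 808 to 1003 bp, and had Z scores of 34.2 to 37.8, although their densities of 26.8 to 31.2 were no higher. Among them, chr15:101337379-101338203 had 26.8 (22.5 to 31.7) after E2 and 44.5 after Dex+E2, was in neither list without E2, and lay 9251 bp from the nearest untreated region. At chr4:134658085-134659088 the values were 26.8 after E2, 12 after Dex alone and 51.7 with both hormones. The 3 wider regions had higher deposited densities after Dex+E2 than after E2 alone, as did 20267 of the 22513 shared sites listed after Dex+E2. By width, the leading gained region was chr15:81753501-81755070 (1569 bp), with 8.80 after E2 and 9.07 with both hormones. The 5 widest had densities of 3.20 to 8.80. Of the gained regions 10.4% lay within 1 kb of an untreated region and 45.7% within 10 kb, with a median distance of 12224 bp. How many other positions lie so near was not counted, so closeness is not read as a trait of gained regions.

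Most of the strong regions lost after E2 were listed in the other hormone libraries, though a smaller share than of the shared regions of the same density. Of the 244 lost regions of density class 5, the Dex list held 231 (94.7%), the Dex+E2 list 225 (92.2%) and neither list 5. Their median density was 26.5 untreated, 12.5 after Dex and 10.9 after Dex+E2 where listed, so that they stood lower in both. Of the 5767 lost regions of class 4, the Dex list held 69.5% and the Dex+E2 list 64.6%, and of the 10761 of class 3, 34.3% and 33.1%. In class 1 these shares were 6.06% and 5.26%. For shared untreated regions they were 99.8% and 99.7% in class 5, 88.3% and 92.8% in class 4, 56.5% and 72.3% in class 3, and 45.7% and 53.7% in class 1.

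The densest lost region, chr15:78636893-78638116, had 43.9 (37.6 to 50.9) untreated and 13.5 after Dex, and was missing from both lists with E2. At chr15:98702223-98703052 the density was 42.6 untreated, 23.8 after Dex and 15.4 with both hormones. At chr15:59608805-59609587 it was 39.8 untreated, 9.80 after Dex and 10.4 with both. In all, 8 of the 10 densest had a lower deposited value than untreated in each Dex or Dex+E2 list that held them. This was so for 96.7% of the 239 lost regions of class 5 found in either list and for 96.8% of the 12928 shared ones, so it does not set the lost regions apart. A different pattern was seen at 1 of the 10: chr16:30502186-30503250 had 36.0 untreated, 46.3 after Dex and 32.4 after Dex+E2, and no region within 9030 bp after E2. Another, chr1:24560214-24560767 (40.8), was in no hormone list and had a Z score of 12.1, against 26.3 to 49.2 for the other 9.

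Among wide lost regions, chr13:111190595-111194331 spanned 3736 bp at a density of 11.2 (8.15 to 15.1) and was in no hormone list. The next, chr15:101930046-101933503, spanned 3457 bp and had 29.3 untreated, 58.3 after Dex and 57.6 after Dex+E2, with the nearest E2 region 901 bp away. At chr1:66861613-66864788 (3175 bp) the density was 25.3 untreated, 10.04 after Dex and 11.1 after Dex+E2. The 5 widest lost regions were thus a mixed group, with 1 missing from all hormone lists and 1 denser in both Dex libraries than untreated. Of all lost regions 8.13% had an E2 region within 1 kb and 35.5% within 10 kb, and the median distance was 19379 bp, again with no count for other positions.

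Regions linked by overlap were joined into 24574 shared sites, of which 23150 (94.2%) had 1 region in each list. In 1317 sites 1 untreated region faced several E2 regions, and in 78 it was the reverse. The most divided untreated region, chr17:71196301-71202969, spanned 6668 bp with a density of 44.4 and held 6 E2 regions of up to 14.2. A region of 6490 bp, chr3:145310283-145316773, held 5, with 95.1 untreated and 20.4 after E2. Where each list had 1 region, the E2 region lay wholly inside the untreated one at 18611 sites (80.4%), and the midpoints were a median of 55.5 bp apart. The median width was 856 bp untreated and 595 bp after E2. The median log2 width ratio was −0.52 (quartiles −0.88 and −0.26), and the E2 region was the wider one at 1915 sites (8.27%). Sites were chosen for overlap, so the closeness of their midpoints follows in part from that choice. Where a site was listed in both libraries, its limits were mostly narrower after E2.

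Densities as deposited were lower after E2 at 23209 shared sites (94.4%). The median maximum density over the shared sites was 25.5 untreated and 9.20 after E2, which is 2.77-fold lower, and the median of the average density over a region was 5.82 and 2.43, or 2.40-fold lower. On this deposited scale 50 sites were at least 2-fold higher after E2 and 18357 at least 2-fold lower. Shifts at single sites are therefore given relative to these medians: the log2 ratio of E2 to untreated minus the log2 ratio of the medians, −1.47 for maximum and −1.26 for average density. On the relative scale a site that kept its deposited density has a value of about 1.47.

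The relative shift went down with density. By the mean log2 density of both libraries, its median was 0.92 in class 1, 0.16 in class 2, −0.08 in class 3, −0.19 in class 4 and −0.23 in class 5. The medians of maximum density behind these values were 8.67 untreated and 5.60 after E2 in class 1, and 76.5 and 24.2 in class 5. Average density gave 0.69 in class 1 and −0.26 in class 5. A shared site must reach the list threshold in both libraries, and 95% of E2 regions had a density of at least 3.80, so weak untreated sites could be shared only if they were not much lower after E2. Over all shared sites class 5 differed from class 1 by −1.15. Over the 20775 sites that were in all 4 lists, which leaves out more than 50% of class 1, the difference was −0.63 with classes made anew from the same libraries. With classes taken from the Dex and Dex+E2 libraries, which the shift does not use, it was −0.51 over those 20775 sites. Most of the reduction thus came with the smaller set of sites, and the direction was the same.

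**Figure D2:**
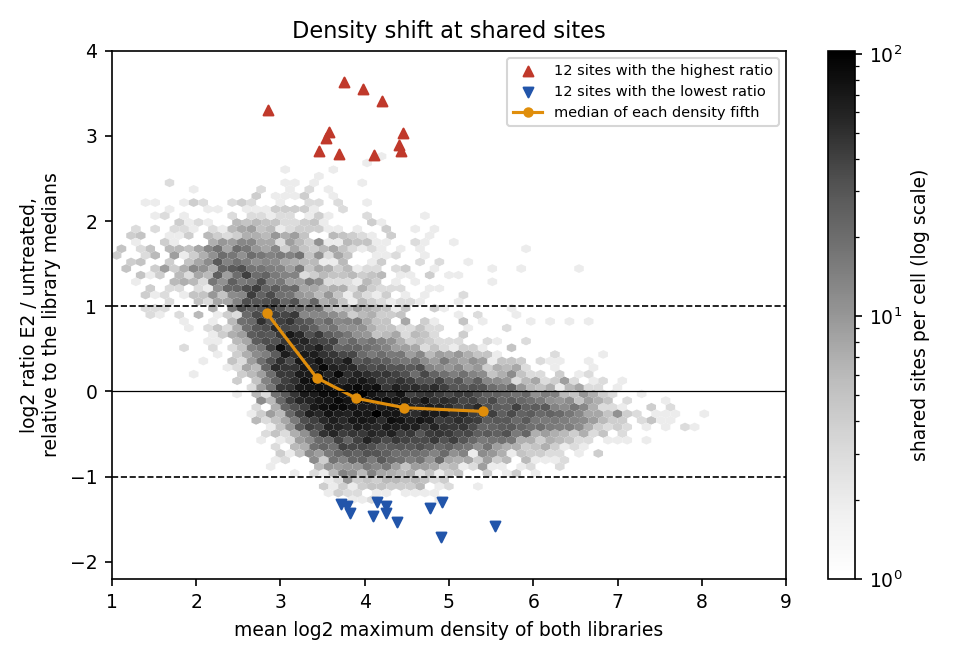
Log2 ratio of maximum density, E2 over untreated and relative to the library medians, against the mean log2 maximum density of both libraries, for the shared sites (grey cells, shaded by number on a log scale; 7 sites lie outside the axes). Circles are the medians of the 5 density classes, from 0.92 to −0.23, triangles are the 12 sites with the highest and the 12 with the lowest ratio among well-covered sites, and dashed lines mark 2-fold.

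Width went with the shift in the same direction. The median was 0.84 for the narrowest class of sites (254 to 666 bp) and −0.27 for the widest (1316 to 17088 bp), a difference of −1.11. By average density the order was less regular, from 0.59 in class 1 to −0.17 in class 4 and −0.10 in class 5. Narrow sites were mostly weak ones, so the comparison was repeated within each density class, with widths divided anew. The widest class then differed from the narrowest by −0.87 in density class 1, −0.66 in class 2, −0.46 in class 3, −0.36 in class 4 and −0.19 in class 5. By maximum density wide sites thus had the lower relative value after E2 at every density, by less where density was high. By average density, with the width classes of all sites, the medians did not go down steadily with width. In density class 3 they were 0.12 in width class 1, −0.12 in class 3 and 0.02 in class 5. The width of a site was mostly that of its untreated regions (medians of 892 and 881 bp). In the grid of both measures 1 cell stood apart: the 17 sites of the highest density and lowest width had a median of 1.40, and 11 of them lay in the stretches described above.

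**Figure D3:**
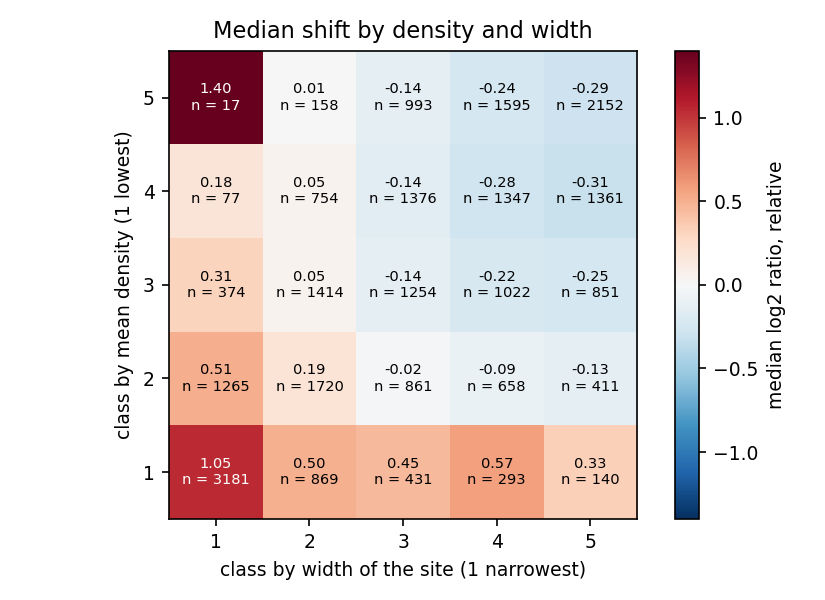
Median relative log2 ratio of E2 to untreated for shared sites in each combination of density class (vertical) and width class (horizontal), with the number of sites; red is higher and blue lower after E2. Medians are highest at weak, narrow sites (1.05) and at the 17 dense, narrow ones (1.40), and lowest, at −0.31, in density class 4 and width class 5.

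At least 2-fold higher sites relative to the medians numbered 3136, which is 12.8% of the 24574 shared sites, and at least 2-fold lower ones 174, or 0.708%. The values nearest to these limits were 1.001 and 0.999994 for the former and −1.001 and −0.999992 for the latter. Higher sites were weak: 2211 of them were in density class 1 and 88 in class 5, and their median density was 7.14 untreated and 6.80 after E2. On the deposited scale 1365 of the 3136 were at least as dense after E2 as untreated. Lower sites were of middle to high density, with medians of 46.7 untreated and 7.80 after E2, and 71 of the 174 were in class 4 and none in class 1. Average density gave 2349 higher and 338 lower sites, and 2170 and 85 met the limit by both measures. The number of lower sites rested on the scaling and was 25 with medians taken over the densest 10% of sites. Higher and lower sites also differed in width: the E2 region was the wider one at 1522 of 2998 higher sites (50.8%) and at 1 of 165 lower sites. These counts are for sites with 1 region in each list, of which 8.27% in all had the wider region after E2.

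Some of the higher sites lay in 20 short stretches, which held 351 shared sites, 331 of them higher, within 1700.4 kb in all. The leading stretch, chr8:19679321-19802696, held 41 shared sites, 37 of them higher, with median densities of 18.9 untreated, 20.2 after E2, 18.9 after Dex and 18.8 after Dex+E2. At chr12:116691540-116877077 all 21 sites were higher, with medians of 8.67, 10.8, 12.5 and 11.3 in the same order. At chr11:3031877-3100127 the values were 80.2, 79.4, 86.6 and 85.1 over 16 sites. The 20 lay on chromosomes 1, 3, 4, 5, 7, 8, 10, 11, 12 and 17, and each had a median relative shift between 1.35 and 1.78. Their median deposited densities after E2 were similar to those untreated, while the median over all shared sites was 2.77-fold lower after E2. This similarity and the relative shifts follow in part from the definition, which asks for sites 2-fold higher relative to the medians. The definition did not use the Dex and Dex+E2 libraries. Their medians were mostly similar too, though at chr7:71218037-71235699 they were 7.35 and 11.6, against 8.93 untreated. Of the 88 higher sites of class 5, 37 were in the stretches and 51 elsewhere.

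The Dex+E2 and Dex libraries form a second pair that differs in E2 and has no library in common with the E2 and untreated pair. Of the 20775 shared sites that were in all 4 lists, 383 (1.84%) were at least 2-fold higher after Dex+E2 than after Dex relative to the medians, and 209 (1.01%) at least 2-fold lower. Among the 1197 sites that were 2-fold higher after E2 than untreated and lay outside the stretches, 186 (15.5%, 13.6 to 17.7) were also higher in that pair. This share was 4.15% of 675 sites in density class 1, 14.9% of 221 in class 2, 38.5% of 143 in class 3, 48.6% of 107 in class 4 and 35.3% of 51 in class 5. Among shared sites that were not higher after E2, it was between 0.672% and 1.32% in every class. Inside the stretches 2 of 271 higher sites were also higher in the second pair. The sites that were higher with E2 in both pairs were thus most frequent among those of middle to high density outside the stretches.

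**Figure D4:**
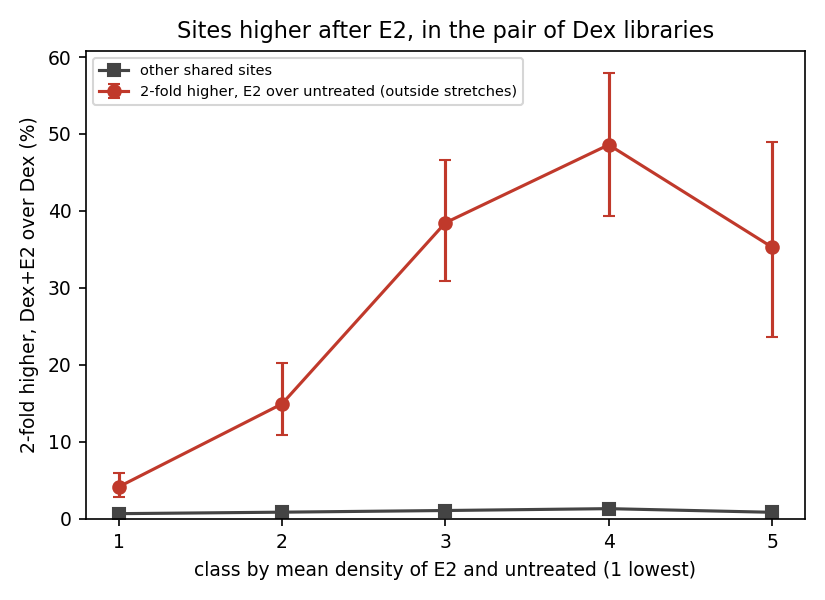
Share of sites at least 2-fold higher after Dex+E2 than after Dex (%), by density class of the E2 and untreated libraries, for sites that were 2-fold higher after E2 than untreated outside the stretches (circles, with Wilson 95% intervals) and for the other shared sites (squares). The former run from 4.15% in class 1 to 48.6% in class 4, and the latter stay between 0.672% and 1.32%.

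For lower sites the second pair gave a small but common shift the same way. Of the 173 lower sites in all 4 lists, 159 (91.9%) were below 0 on the relative scale in Dex+E2 against Dex, with a median of −0.42, whereas 51.6% of all 20775 sites were below 0. The limit of 2-fold lower was met by 13 of the 173 (7.51%), against 1.01% of all sites.

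The 12 sites with the highest relative ratio, among those with at least 50 summit tags after E2, had untreated densities of 3.83 to 13.5 and E2 densities of 13.6 to 37.6. Their counting intervals did not overlap on the deposited scale, which follows largely from the choice of sites by this ratio and tag number. The site chr4:137344134-137345016 led, with 6.38 (4.13 to 9.41) untreated, 28.6 (24.1 to 33.7) after E2 and 39.5 after Dex+E2, and it was not in the Dex list. This is 12.4-fold higher after E2 relative to the medians and 2.17 on the deposited log2 scale. At chr2:181407878-181408800 the densities were 7.65 untreated, 32.4 after E2 and 33.6 after Dex+E2, again with no region after Dex (11.7-fold relative to the medians). At chr6:53657701-53658372 they were 3.83, 13.6 and 13.6, with none after Dex (9.86-fold). Density after Dex+E2 was 1.38, 1.04 and 1.001 times that after E2 at these 3 sites, below the median of 1.45 times over the 22513 shared sites that were also listed after Dex+E2.

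At the 12 sites this ratio ran from 1.001 to 2.57 with a median of 1.67, and it was above the median of all sites at 7. The site chr11:73017214-73017988 had 6.89 untreated, 19.6 after E2, 11.3 after Dex and 46.5 after Dex+E2, and it was 7.89-fold higher relative to the medians. In this order of libraries chr5:20789383-20790126 had 6.89, 17.6, 11.3 and 34.7 (7.09-fold). At chr5:113711790-113712753 they were 12.8, 37.6, 52.9 and 96.6 (8.17-fold), so that this site was also high after Dex alone. At chr16:21382021-21382997 they were 13.5, 34.4, 11.02 and 43.1 (7.06-fold), with Dex alone below the untreated value. The Dex+E2 list held 12 of the 12 sites and the Dex list 6. Of all shared E2 regions, 91.4% had a counterpart after Dex+E2 and 88.1% after Dex. Deposited density was higher after Dex+E2 than after E2 at each of the 12, but also at 20267 of the 22513 shared sites in that list and at 11 of the 12 sites of lowest ratio. Of the 6 sites of highest ratio in the Dex list, 5 were at least 2-fold higher after Dex+E2 than after Dex relative to the medians. The listed region was wider after E2 at each of the 12 sites, with a median width of 828 bp against 454 bp untreated. Over all sites with 1 region in each list this was so at 8.27%, and over the 2-fold higher ones at 50.8%. Dense regions tended to be wide, so the width follows in part from the choice by density ratio.

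**Figure D5:**
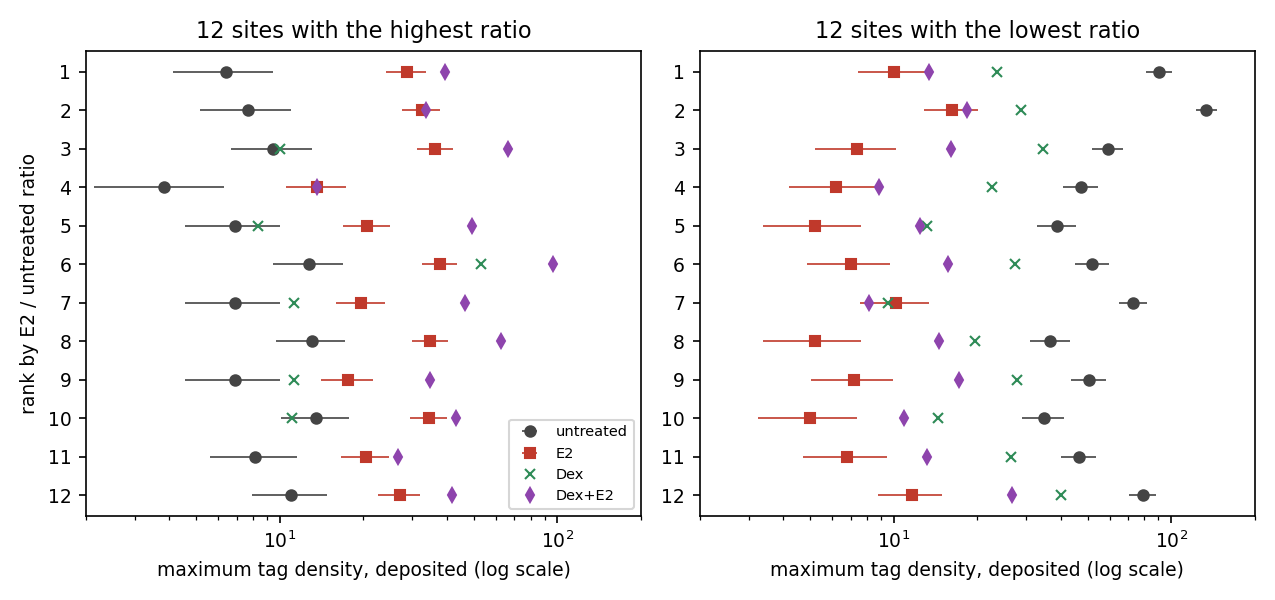
Deposited maximum tag density (log scale) in each of the 4 libraries at the 12 shared sites with the highest (left) and the 12 with the lowest (right) ratio of E2 to untreated, in order of that ratio; bars are exact Poisson 95% intervals for untreated and E2, and a missing symbol means that the site was not listed. At left, E2 and Dex+E2 lie above untreated at every site, and at right untreated lies above all other libraries. The order of E2 and untreated follows from the choice of sites. Of the 12928 shared untreated regions of density class 5 found after Dex or Dex+E2, 96.8% were also lower than untreated in each list that held them.

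The 12 sites with the lowest ratio, among those with at least 50 summit tags untreated, had densities of 34.7 to 134 untreated and 5.00 to 16.2 after E2, and were 2.46-fold to 3.27-fold lower relative to the medians. The lowest was chr13:111713858-111714975, with 90.5 (81.4 to 100.5) untreated, 10.00 (7.42 to 13.2) after E2, 23.5 after Dex and 13.4 after Dex+E2. In this order chr17:64027112-64028358 had 134, 16.2, 28.7 and 18.4. At chr2:130854949-130855915 they were 59.2, 7.40, 34.5 and 16.1. All 12 were in all 4 lists. Each was lower with Dex+E2 than with Dex, as deposited and relative to the medians, where 51.6% of the 20775 sites in all 4 lists were below 0. Of the 12, 3 were at least 2-fold lower in that pair relative to the medians. The site chr9:116127528-116128687 (72.9, 10.2, 9.55 and 8.17) was lower after Dex or Dex+E2 than after E2. At the other 11, among them chr6:90713896-90714767 (38.8, 5.20, 13.2 and 12.5), E2 alone gave the lowest deposited value of the 4 libraries. These sites were chosen for low values after E2 against untreated. Deposited density was also below that after Dex+E2 at 20267 of the 22513 shared sites in that list. How many of all sites had E2 lowest of 4 was not counted. The E2 region was narrower than the untreated one at each of the 12 sites, with a median of 566 bp against 1113 bp. Over all sites with 1 region in each list the E2 region was the wider one at 8.27%, so being narrower does not set these sites apart. The median log2 width ratio was −0.94 over the 2-fold lower sites and −0.52 over all. Weak regions tended to be narrow, so the width follows in part from the choice by density ratio.

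The 5 densest sites of untreated cells had maximum densities of 5729 to 15878 there and 1166 to 3270 after E2. The densest, chr13:85266243-85267370, had 15878 untreated, 3270 after E2, 7501 after Dex and 3413 after Dex+E2. These 5 were 1.41-fold to 1.77-fold lower after E2 relative to the medians (log2 −0.50 to −0.83, against a median of −0.23 in class 5).

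Chromosomes differed in both shares. On chromosome X 36.3% of 1006 E2 regions were gained and 72.1% of 2148 untreated regions were lost. Its regions were the weakest, with median densities of 4.34 untreated and 4.20 after E2. Chromosome 11, with the strongest regions (12.2 and 8.80), had the lowest shares, at 18.7% gained and 56.5% lost. The median relative shift of shared sites ran from −0.09 on chromosome X to 0.11 on chromosome 12, which had the highest share of 2-fold higher sites (21.0% of 1140). Chromosome 12 carries 3 of the 20 stretches, but chromosomes 1 and 8 also carry stretches and had medians of 0.003 and 0.07.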

How the data were processed

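Per the file headers, each deposited list gives the position, maximum and average tag density, Z score and p-value of the hypersensitive regions of 1 library. The densities are a signal, deposited on a scale set for each library by the authors to a total that the sources used here do not give. The Z score and the p-value are the authors' own for single regions; p-values were not used. Per the submitters' processing notes the build is mm9 and CASAVA 1.8 was used. Neither the aligner nor the region caller is named (not given in the sources used here). The extraction text of the labels names sonicated nuclei and no nuclease step.

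Groups follow the treatment in the labels. Overlap was 1 bp or more. Regions linked by overlap formed shared sites, with the highest value per list. Dividing each maximum density by the smallest step of its list gave whole numbers, within 0.05, for 100% of regions, and these were read as tags. Classes are of equal size, 5 per measure. Sites named are the 10 densest and 5 widest gained and lost regions, the 12 highest and 12 lowest ratios with at least 50 tags, and the 5 densest sites; only some of each are printed. The functions recovered planted regions and ratios in simulated data. Members, rules and classes were chosen with earlier results of these data known. Planned gene, motif and marker counts were not made, since no mm9 annotation was used here. Alternatives covered overlap, list length, Z score, scaling, density measure and chromosome X. Intervals are Wilson (shares) and exact Poisson (summit tags) at 95%. Tools were Matplotlib 3.10.9, SciPy 1.17.1, pandas 2.3.3 and NumPy 2.4.6 under Python 3.11.15.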

Additional observations from a re-analysis of the deposited data

How the results depend on the processing

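The 9453 gained regions stayed within 1.5 times of that number under all 6 alternatives (overlap of 50%, midpoint rule, joining within 150 bp, equal list lengths, Z score, chromosome X left out). The 41178 lost regions did so under 5 of the 6. With both lists held to their 35496 densest regions 13267 were lost, since fewer untreated regions then entered, and 11899 were gained. Similar numbers at equal list lengths follow largely from the pairing of 1 region with 1 at 94.2% of shared sites, and are no separate result. The 3136 higher sites became 50 on the deposited scale, 875 among sites with at least 50 summit tags, 5395 at a limit of 1.5-fold and 256 at 4-fold. The 174 lower sites became 338 by average density, 18357 on the deposited scale, 25 and 106 with medians over the densest 10% of sites and over the sites in all 4 lists, 103 with at least 50 tags, 2000 at 1.5-fold and 0 at 4-fold. The shift between the densest and the weakest class, −1.15, was −0.95 by average density, and −1.35 and −0.53 with classes by the untreated and the E2 library. Over only the 20775 sites in all 4 lists it was −0.63, and −0.51 there with classes by the other 2 libraries. That between the widest and the narrowest, −1.11, was −0.69 by average density, −1.27 and −0.61 by untreated and E2 width, and −0.51 as the mean within density classes. For these values the cause was not tested, other than the limits and numbers of regions set by the alternatives. The limits of 1.5-fold and 4-fold, the restriction to 20775 sites with unchanged classing, the alternatives for named sites and the omission of the stretches with medians retaken over the other sites (3021 higher and 129 lower; 2805 of the higher sites lie outside the stretches with the medians kept) were chosen after the data were seen. The 24 named sites of highest and lowest ratio kept their direction under all 4 scalings and measures tried. Only average density, from the same libraries, could have reversed it. The scalings move all sites by the same amount, too little to reverse sites chosen for extreme ratios. No paired analysis was possible because each condition had 1 library. Neither a treatment effect nor its error can be estimated from 1 library a side. Weak regions rest on few tags: the median gained and the median lost region held 26 at the summit.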
